A study of Mus musculus with 24 samples.

Results

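The set described here comprises 37 genes of DNA damage signaling and repair, grouped by what their proteins do and chosen with earlier results of these data known. Of these, 34 were measured on the arrays by a probe set annotated to that gene alone, among 22180 genes with such a probe set and 41345 probe sets in all. *H2afx* was found under its current symbol *H2ax*. *Fanca* was annotated only together with *Zfp276* on a shared probe set, and no probe set was annotated to *Xrcc2* or *Dclre1c* alone, so these 3 genes were not analysed here. RNA came from SHH-driven medulloblastomas of C57BL/6 mice harvested untreated at P15, 6 *G-Smo* and 6 *M-Smo* tumors, with 1 Affymetrix array per tumor. Both genotypes carried the oncogenic *SmoM2* allele. Recombination by the *hGFAP-Cre* transgene switched it on in *G-Smo* mice in neural stem cells and their descendants, which include most cells of the brain, and in *M-Smo* mice *Math1-Cre* switched it on later, in committed neural progenitors. The labels give the genotype and a number for each tumor but neither litter nor sex. The p-values set a difference against the spread between these tumors, taken as independent. Whether tumors shared a litter could not be checked. Another 12 tumors received 10 Gy of radiation (xRT) 2 h before harvest, but their 1019 probe sets with values include none annotated to any gene, so these genes are described before radiation only.

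Cells respond to broken DNA in layers. The kinases ATM and ATR sense breaks and stalled replication forks and pass the signal to CHEK2 and CHEK1, while a modified histone, H2AX, marks the chromatin around the break and recruits adaptor proteins. Breaks are then rejoined end to end, a route open through the cell cycle, or copied from the sister chromatid by homologous recombination, which works in S and G2 phase. The Fanconi anemia pathway opens crosslinked DNA for repair, and mismatch repair corrects replication errors. Many genes of homologous recombination and of the Fanconi pathway are transcribed most in cycling cells.

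The deposited values are log2 intensities, on which a difference of 1 is a 2-fold change, and every difference below is *G-Smo* minus *M-Smo*. Array medians were 6.39 to 6.42 in *G-Smo* and 6.38 to 6.41 in *M-Smo* tumors, and no probe set was set against another in level. The list of 10 granule neuron progenitor markers, the lineage of these tumors, had a mean log2 value of 11.40 to 11.49 in *G-Smo* and 11.35 to 11.44 in *M-Smo* tumors, and none of the 10 passed the test between genotypes with limma (3 above and 2 below 0 at an unadjusted p under 0.05, none with the methods' test). A gene passed at a Benjamini-Hochberg adjusted p under 0.05 over all probe sets, and the methods' test is the same comparison made for each probe set without limma's pooling of variances.

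Most of the 34 genes were slightly above their *M-Smo* level in *G-Smo* tumors, and few of these differences stood clear of the spread between tumors. Of the 34, 2 were higher in *G-Smo* tumors, *Fanci* and *Rad51b*, and none was lower (12 above and none below 0 at an unadjusted p under 0.05, and 2 above and none below with the methods' test). Over all probe sets 2.56% passed by the same rule, 1.27% higher and 1.29% lower, and 10.2% lay above and 8.65% below 0 at an unadjusted p under 0.05. Among probe sets with 1 gene symbol 1.15% were higher and 46.6% had a difference above 0. The difference was above 0 for 32 of the 34 genes, 30 after each array was centred on its median, 27 after quantile normalization and 27 with array weights, against 51% of all probe sets. The median difference of the 34 was 0.11 on the log2 scale, against 0.0035 over all probe sets. The genotypes did not overlap, with *G-Smo* on top, for 7 of the 34 (1.89% of all probe sets). These were *Rnf8*, *Brca1*, *Rad51b*, *Blm*, *Msh6*, *Fancd2* and *Fanci*. The reverse was seen for none of the 34 and 1.57% of all probe sets. All 34 genes lay at or above the 40th percentile of mean log2 value. Of the 15034 probe sets with 1 symbol at or above it, 260 passed as higher in *G-Smo* tumors and 395 as lower. Without overlap, 480 of them had *G-Smo* on top and 506 the reverse. The 95% confidence interval of the difference lay within 1.5-fold in both directions for all 34 genes (85.1% of all probe sets). It lay within 1.25-fold for 25 of them (48.3%). Of the 15034 probe sets with 1 symbol at or above the 40th percentile of mean log2 value, 13960 lay within 1.5-fold and 9760 within 1.25-fold.

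**Figure D1:**
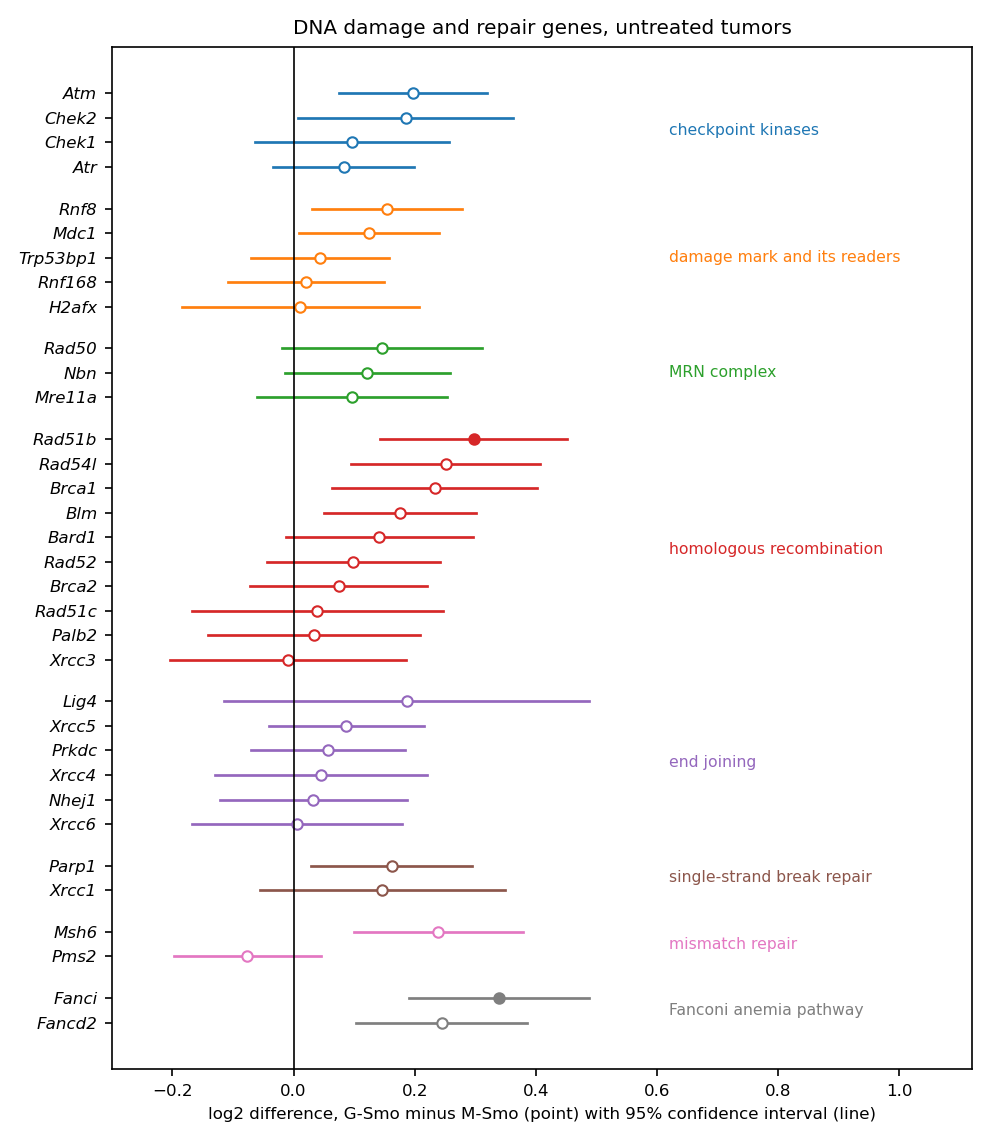
Log2 difference, *G-Smo* minus *M-Smo* (6 untreated tumors each), for each of the 34 genes, by class, with its 95% confidence interval from limma. Filled points passed at an adjusted p under 0.05. Only *Fanci* (0.34) and *Rad51b* (0.30) are filled, and the points of *Xrcc3* and *Pms2* alone lie below 0.

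**Figure D2:**
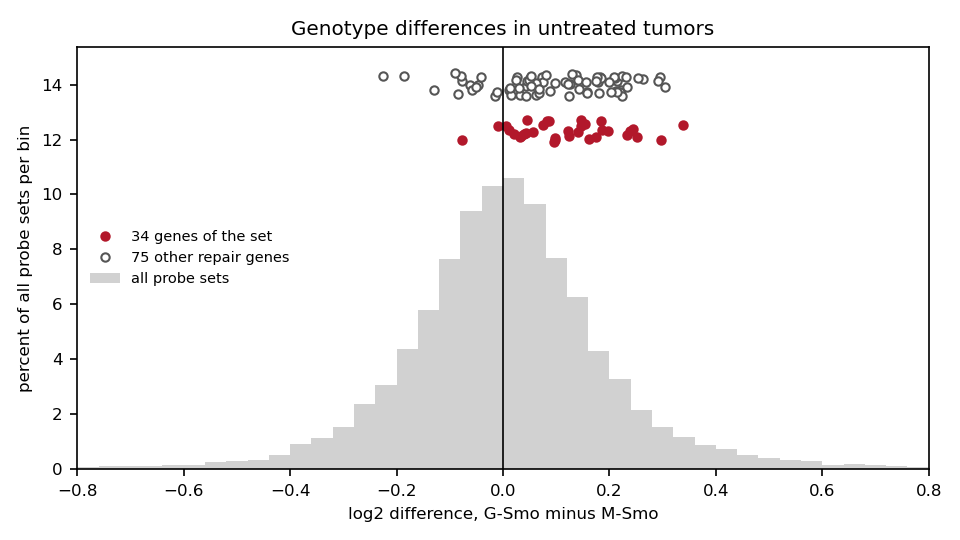
Histogram of the log2 differences of all 41345 probe sets, in percent per bin, with the 34 genes and the 75 other repair genes drawn as points above it at heights that carry no meaning. Probe sets with a difference of 0.8 or more in size (0.876%) lie outside the axis. The points are shifted toward positive values, with medians of 0.11 and 0.08.

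The call count depends on the other probe sets in the adjustment, on how the variance was modelled and on the tumors included. It rose to 6 (*Atm*, *Rad54l*, *Msh6* and *Fancd2* in addition) when the dimmest probe sets, those under the 40th percentile of mean log2 value, were left out (all 34 genes stayed in), and to 5 with limma's trend and robust settings. With a single tumor left out it was 1 or 0, and it was 0 without *G-Smo* replicate 2, 3 or 5.

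The Fanconi anemia pathway, with 2 measured genes, had the largest class median at 0.29. *Fanci* encodes the partner of FANCD2 in the clamp that is ubiquitinated at crosslinked DNA. Its log2 intensity ran from 8.52 to 8.71 with a median of 8.62 in *G-Smo* tumors, and from 8.08 to 8.43 with a median of 8.29 in *M-Smo* tumors. The groups did not overlap, and the 3 lowest values were those of *M-Smo* replicates 1, 2 and 3. The 2 means differed by 0.34 with a standard error of 0.069 (limma, adjusted p = 0.0259), a fold of 1.26 with an interval of 1.14 to 1.40 (exact permutation over the tumors, two-sided, p = 0.00216, the lowest value 6 against 6 can give). The call was kept without 9 of the 12 tumors and lost without *G-Smo* replicate 2, 3 or 5, with a highest adjusted p of 0.0616. It was also lost with a score of sex (adjusted p = 0.0905) or the mean of cell division genes (adjusted p = 0.126) as a covariate in limma. *Fancd2*, its partner in the clamp, ran from 9.28 to 9.53 in *G-Smo* and from 9.02 to 9.27 in *M-Smo* tumors, again without overlap, and did not pass (difference 0.24, adjusted p = 0.0687). Both genes of the clamp thus had their lowest *G-Smo* tumor above their highest *M-Smo* tumor.

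Among 10 measured genes of homologous recombination, 1 was higher in *G-Smo* tumors, none was lower and 9 did not pass (4 above at an unadjusted p under 0.05). *Rad51b* encodes a protein of the early steps of recombination at resected ends. Its log2 intensity ran from 8.07 to 8.41 with a median of 8.17 in *G-Smo* tumors and from 7.84 to 8.05 with a median of 7.90 in *M-Smo* tumors, so that the groups were separated by a narrow gap. *G-Smo* replicates 3 and 5 were the highest. The means differed by 0.30 with a standard error of 0.071 (limma, adjusted p = 0.0485), a fold of 1.23 with an interval of 1.10 to 1.37. The exact permutation p, which is not adjusted, was again the lowest possible, 0.00216. It was the same for *Rnf8*, *Brca1*, *Blm*, *Msh6* and *Fancd2*, which did not pass. The *Rad51b* call lay close to the threshold. It was lost without any 1 of the 12 tumors (adjusted p = 0.0514 to 0.106), after median centring (0.0529), after quantile normalization (0.0753) and with either covariate (0.185 with sex and 0.151 with cell division).

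The other genes of homologous recombination did not pass. *Rad54l*, a motor protein that acts during strand invasion of the sister duplex, had a difference of 0.25 (interval 0.10 to 0.41, adjusted p = 0.0865), with 5 of 6 *G-Smo* tumors above every *M-Smo* tumor. *Brca1*, which directs breaks into recombination, ran from 9.72 to 10.13 in *G-Smo* and from 9.40 to 9.67 in *M-Smo* tumors, a difference of 0.23 (interval 0.06 to 0.40, adjusted p = 0.134). Its groups did not overlap, but 1 tumor in each stood off, *G-Smo* replicate 3 at the top and *M-Smo* replicate 1 at the bottom. *Blm*, the helicase that dissolves recombination intermediates, differed by 0.18 (interval 0.05 to 0.30, adjusted p = 0.126), also without overlap. *Bard1*, the obligate partner of BRCA1, differed by 0.14 and *Rad52*, an annealing factor, by 0.10. *Brca2*, a mediator of recombination, differed by 0.07, and *Palb2*, which joins BRCA1 to BRCA2, by 0.03. *Rad51c* and *Xrcc3*, whose proteins form a complex, differed by 0.04 and -0.01. Their intervals were -0.17 to 0.25 and -0.20 to 0.19.

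**Figure D3:**
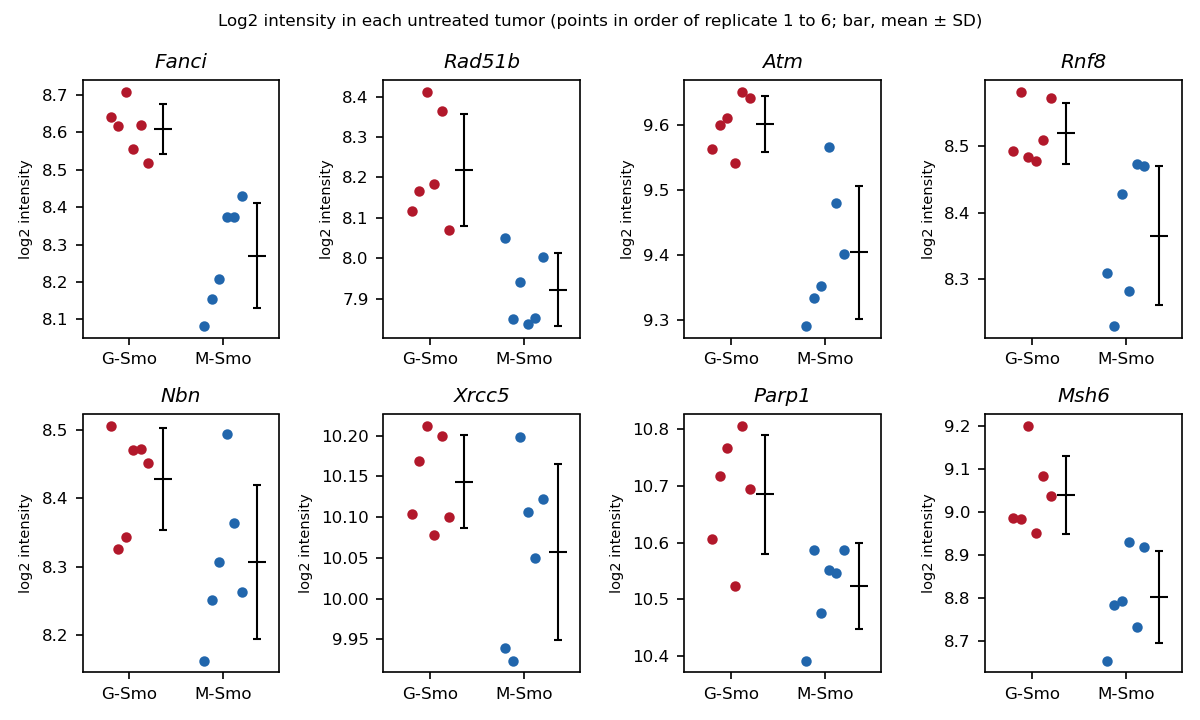
Log2 intensity in each untreated tumor for the 2 genes that passed, *Fanci* and *Rad51b*, and for the gene with the smallest unadjusted p in each other class, with the mean ± SD beside each group of 6. The groups are apart in *Fanci*, *Rad51b*, *Rnf8* and *Msh6* and overlap in *Atm*, *Nbn*, *Xrcc5* and *Parp1*.

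The sequence upstream of the start is shown for the 2 genes that passed, from RefSeq windows on GRCm38.p6, and ends before the first annotated base of the gene. Capitals mark the letters CCAAT of the CCAAT box (in *Rad51b*, read on the other strand) and GGAAGTG of ETS factors and GGGCGG of Sp1 (in *Fanci*). *Rad51b* lies on the plus strand at chr12:79297032-79297281 and *Fanci* on the plus strand at chr7:79392088-79392311.
Rad51b: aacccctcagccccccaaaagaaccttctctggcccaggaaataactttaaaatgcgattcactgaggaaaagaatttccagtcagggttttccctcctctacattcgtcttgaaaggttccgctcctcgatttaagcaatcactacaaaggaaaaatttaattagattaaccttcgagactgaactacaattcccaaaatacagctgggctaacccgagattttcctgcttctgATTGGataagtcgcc
Fanci: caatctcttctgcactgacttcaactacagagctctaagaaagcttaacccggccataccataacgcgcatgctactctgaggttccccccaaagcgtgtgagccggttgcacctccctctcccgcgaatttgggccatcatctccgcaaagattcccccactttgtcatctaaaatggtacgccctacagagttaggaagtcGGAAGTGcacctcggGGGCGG
Windows of 250 bases before a start were held for 29 of the 34 genes, in 33 windows, and not for *Fancd2*, *H2afx*, *Nbn*, *Prkdc* and *Rad50*. Of the 33 windows 14 end at the annotated first base of the gene. A motif counted below therefore need not lie upstream of the gene. Searched on both strands for 8 motifs, 5 of the 33 windows held TTTCCCGC, a form of the site of E2F factors that switch on S phase genes, against 0.895% of all 32851 windows, and none held the form TTTGGCGC (0.417% of all). The 5 genes are *Bard1*, *Brca2*, *Chek2*, *Mdc1* and *Xrcc6*, of which none passed the test between genotypes. GGGCGG stood in 23 of the 33 windows (32.7% of all), CCAAT in 16 (33.8%), GGAAGTG in 5 (8.55%), the cell cycle motif TTTGAA in 2 (16% of all), and the motifs of NRF1 and ZNF143 in 1 each (0.782% and 0.39%). The E2F letters are shown in capitals for *Bard1* (chr1:71103158-71103197, minus strand) and *Mdc1* (chr17:35841466-35841494, plus strand), where they precede the first annotated base of the gene, which in the other 3 genes they do not.
Bard1: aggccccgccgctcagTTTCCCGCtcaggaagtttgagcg
Mdc1: cgttttcttcagcctgTTTCCCGCcggta
A match of letters is a description of the window and not a bound site.

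None of the 4 checkpoint kinases passed with limma or with the methods' test, and 2 were above 0 at an unadjusted p under 0.05. *Atm*, the kinase that answers double-strand breaks, ran from 9.54 to 9.65 with a median of 9.60 in *G-Smo* tumors and from 9.29 to 9.57 with a median of 9.38 in *M-Smo* tumors. *M-Smo* replicate 4 alone reached into the *G-Smo* range. The difference was 0.20 (interval 0.08 to 0.32, adjusted p = 0.0848). *Chek2*, the kinase downstream of ATM, differed by 0.18 (interval 0.01 to 0.36, adjusted p = 0.244). The replication stress pair *Atr* and *Chek1* differed by 0.08 (interval -0.03 to 0.20) and 0.10 (interval -0.06 to 0.26). *Atr* is the only gene of the set with a second probe set, which had a difference of -0.21 (adjusted p = 0.247), so the 2 probe sets differ in direction and the mean of both was -0.06.

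For the marked histone and its readers, 5 of 5 measured genes did not pass (2 above 0 at an unadjusted p under 0.05). *Rnf8*, a ubiquitin ligase recruited by MDC1, ran from 8.48 to 8.58 with a median of 8.50 in *G-Smo* and from 8.23 to 8.47 with a median of 8.37 in *M-Smo* tumors. The groups did not overlap, and the 2 ranges came within a hundredth of each other. The difference was 0.15 (interval 0.03 to 0.28, adjusted p = 0.167). *Mdc1*, the adaptor that binds the marked histone, differed by 0.12 (interval 0.01 to 0.24, adjusted p = 0.234). *Trp53bp1*, which steers breaks toward end joining, *Rnf168*, the second ubiquitin ligase, and *H2afx*, the histone itself, differed by 0.04, 0.02 and 0.01, the last with an interval of -0.19 to 0.21 and a sign that turned after median centring (-0.0027) and quantile normalization (-0.0096).

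The MRN complex, which holds broken ends and activates ATM, had 3 measured genes, and none passed (none at an unadjusted p under 0.05). *Nbn* ran from 8.33 to 8.51 with a median of 8.46 in *G-Smo* and from 8.16 to 8.49 with a median of 8.28 in *M-Smo* tumors, and *M-Smo* replicates 4 and 5 lay within the *G-Smo* range. Its difference was 0.12 (interval -0.01 to 0.26). *Rad50* and *Mre11a*, the tether and the nuclease of the complex, differed by 0.15 and 0.10.

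End joining, the route that does not need a sister chromatid, had the second smallest class median at 0.05, and none of its 6 measured genes passed (none at an unadjusted p under 0.05, none with the methods' test). *Xrcc5*, which encodes the larger subunit of the Ku ring, ran from 10.08 to 10.21 with a median of 10.14 in *G-Smo* and from 9.92 to 10.20 with a median of 10.08 in *M-Smo* tumors. The *G-Smo* range lay almost wholly inside the upper part of the *M-Smo* range. Its difference was 0.09 (interval -0.04 to 0.21). *Xrcc6*, the other Ku subunit, differed by 0.005 (interval -0.17 to 0.18), with a negative sign after median centring (-0.0088) and quantile normalization (-0.028). *Prkdc*, the DNA-dependent protein kinase that Ku recruits, differed by 0.06 (interval -0.07 to 0.18). *Xrcc4* and *Nhej1*, which bridge the ends for the ligase, differed by 0.04 and 0.03. *Lig4*, the ligase, had the widest interval of the set, -0.11 to 0.49 around a difference of 0.19, and its *M-Smo* values ran from 6.92 to 7.89 against 7.53 to 7.77 in *G-Smo* tumors.

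Of the remaining classes, single-strand break repair had 2 measured genes. *Parp1*, the sensor of strand breaks, ran from 10.52 to 10.81 with a median of 10.71 in *G-Smo* and from 10.39 to 10.59 with a median of 10.55 in *M-Smo* tumors. Of the *G-Smo* tumors, 5 lay above every *M-Smo* tumor and replicate 4 fell among them. The difference was 0.16 (interval 0.03 to 0.29, adjusted p = 0.177). *Xrcc1*, the scaffold of this pathway, differed by 0.15 (interval -0.06 to 0.35). In mismatch repair *Msh6*, a subunit of the complex that recognizes mispaired bases, ran from 8.95 to 9.20 with a median of 9.01 in *G-Smo* and from 8.65 to 8.93 with a median of 8.79 in *M-Smo* tumors. The groups did not overlap, yet the gene did not pass (difference 0.24, interval 0.10 to 0.38, adjusted p = 0.0716). *Pms2*, a subunit of the nuclease that acts after it, had the only negative difference beyond a hundredth, -0.08 (interval -0.20 to 0.04, adjusted p = 0.496).

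The tumors differed within the genotypes as well. The mean log2 value over the 34 genes was 8.76, 8.85 and 8.80 in *M-Smo* replicates 1, 2 and 3, and 8.96, 8.94 and 8.97 in replicates 4, 5 and 6. In *G-Smo* tumors it ran from 8.95 in replicate 4 to 9.07 in replicate 3, with a median of 8.99. Thus *M-Smo* replicates 4 and 6 reached into the *G-Smo* range and replicates 1, 2, 3 and 5 lay below it. Replicate 5 was just below, at 8.935 against 8.953 in *G-Smo* replicate 4, and was below the median of the 12 tumors for 24 of the 34 genes. *M-Smo* replicate 1 was the lowest of all 12 tumors for 18 of the 34 genes and below the median of the 12 for 33, and *G-Smo* replicate 3 was the highest for 11. The SD was larger in *M-Smo* than in *G-Smo* tumors for 26 of the 34 genes, against 60.3% of all probe sets, with median SDs of 0.111 and 0.0861. Without *M-Smo* replicate 1 the median difference of the 34 genes was 0.085 in place of 0.11, and *Fanci* still passed.

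**Figure D4:**
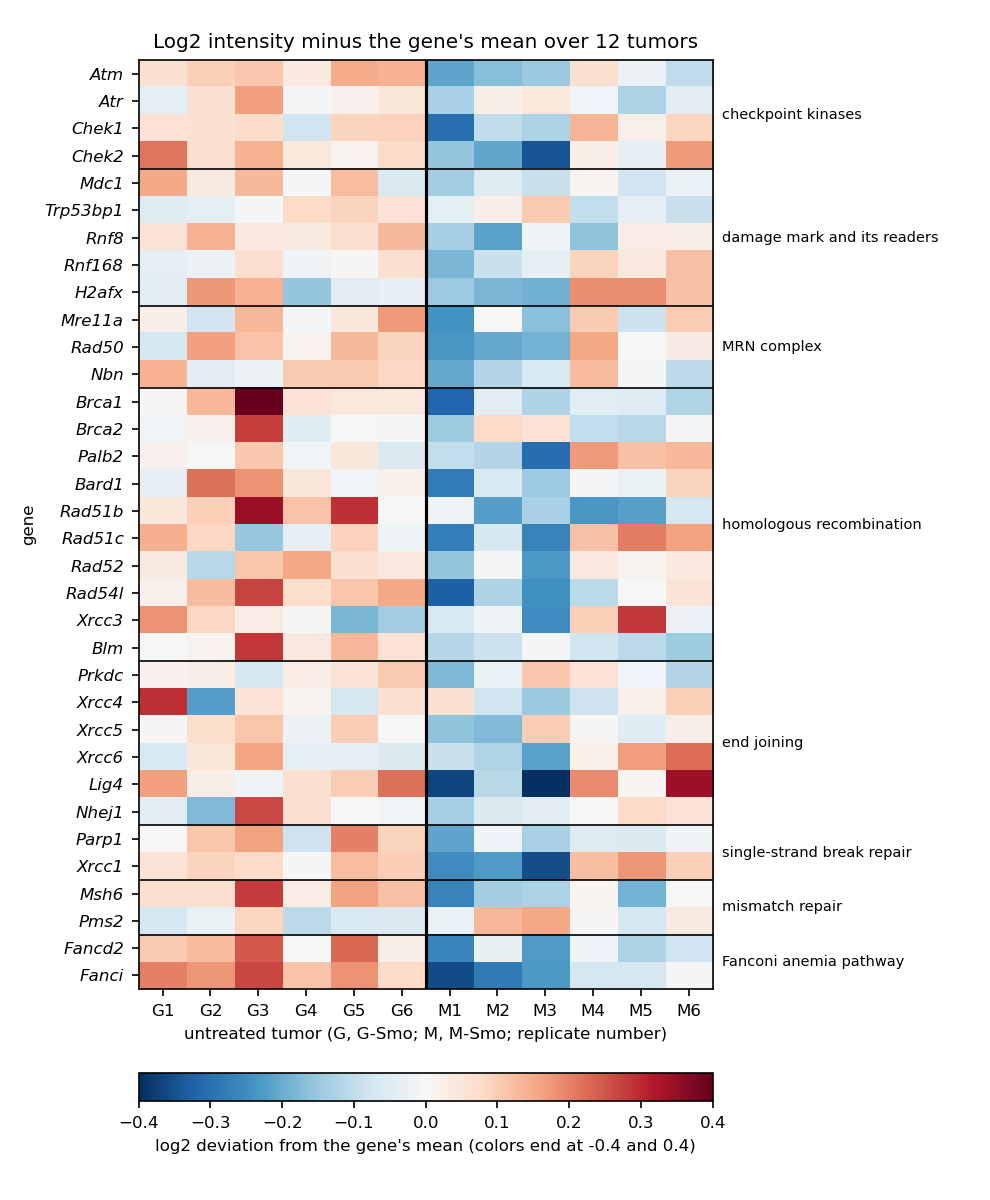
Log2 intensity of each of the 34 genes (rows, by class) in each of the 12 untreated tumors (columns), as the deviation from the gene's mean over all 12. *M-Smo* replicates 1, 2 and 3 are blue in most rows, replicates 4, 5 and 6 are mixed, and *G-Smo* replicate 3 is red in most rows.

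The genes of cell division were also lowest in *M-Smo* replicates 1, 2 and 3. None of 20 S phase genes passed with limma (4 above 0 at an unadjusted p under 0.05, none with the methods' test), and neither did any of 19 measured mitotic genes (10 above 0 at an unadjusted p under 0.05, 1 with the methods' test). Their differences were above 0 for 18 and 19 genes, with medians of 0.07 and 0.18. Over all probe sets 51% had a difference above 0, and 10.2% lay above 0 at an unadjusted p under 0.05. *Bub1b*, a spindle checkpoint kinase, differed by 0.32 (adjusted p = 0.0502) and *Plk1*, a mitotic kinase, by 0.31 (adjusted p = 0.075), while *Tyms* and *Rrm2*, which make DNA precursors, differed by 0.19 and 0.26 (adjusted p = 0.115 and 0.131). The mean over both lists was 10.22, 10.32 and 10.23 in *M-Smo* replicates 1, 2 and 3, 10.46 to 10.49 in replicates 4 to 6, and 10.42 to 10.57 in *G-Smo* tumors. With this mean as a covariate in limma none of the 34 genes passed (268 of all probe sets did), 21 had a difference above 0, and the median difference was 0.043. *Fanci* then differed by 0.21 (adjusted p = 0.126) and *Rad51b* by 0.30 (adjusted p = 0.151). *H2afx*, *Xrcc6*, *Rad51c* and *Palb2* had differences of -0.18, -0.15, -0.14 and -0.13 in that fit.

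Markers of oligodendrocytes, astrocytes, fibroblasts and meninges, and endothelial cells included genes that were lower in *G-Smo* tumors, whereas those of microglia and macrophages were mixed. Of 9 measured oligodendrocyte genes 4 were lower in *G-Smo* tumors, of 8 astrocyte genes 4, of 8 genes of fibroblasts and meninges 5, of 8 endothelial genes 1 (*Cdh5*, -0.33) and of 9 microglia and macrophage genes 1 (*Mrc1*, -0.71), and none of these was higher. Over all probe sets 1.29% were lower by the same rule. In the microglia and macrophage list 5 of the 9 differences were above 0, with a median of 0.008. None of 6 genes of ependyma and choroid plexus passed (2 lower at an unadjusted p under 0.05, none with the methods' test), and 2 of the 6 were above 0. The 4 oligodendrocyte calls were absent with the methods' test. The mean over the oligodendrocyte list was 7.86 to 8.76 in *G-Smo* and 8.93 to 10.16 in *M-Smo* tumors, that over the astrocyte list 9.88 to 10.13 and 10.16 to 10.48, and that over the fibroblast list 8.04 to 8.45 and 8.65 to 8.95, so that none of these 3 overlapped. *Cldn11*, a tight junction protein of myelin, differed by -1.16, *Aldh1l1*, an astrocyte enzyme, by -0.40, and *Dcn*, a matrix proteoglycan, by -0.79. Within *M-Smo* tumors the oligodendrocyte mean was 10.16, 8.95 and 8.93 in replicates 1, 2 and 3. In replicates 4, 5 and 6 it was 9.42, 9.30 and 9.10. In the same order the fibroblast mean was 8.95, 8.92, 8.94, 8.83, 8.65 and 8.79, higher in replicates 1, 2 and 3. The astrocyte mean was 10.35, 10.16, 10.43, 10.48, 10.26 and 10.44. The part of these cell types in the differences of the repair genes was not tested. In bulk tissue fewer cells of a type and less RNA per cell cannot be told apart. Of 12 genes of granule neuron differentiation none passed (3 lower at an unadjusted p under 0.05, none with the methods' test). The list means were 9.90 to 10.27 in *G-Smo* and 10.06 to 10.29 in *M-Smo* tumors. In *M-Smo* replicates 1, 2 and 3 this mean was 10.29, 10.22 and 10.22. In replicates 4, 5 and 6 it was lower, at 10.13, 10.10 and 10.06, and its part was not tested either.

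**Figure D5:**
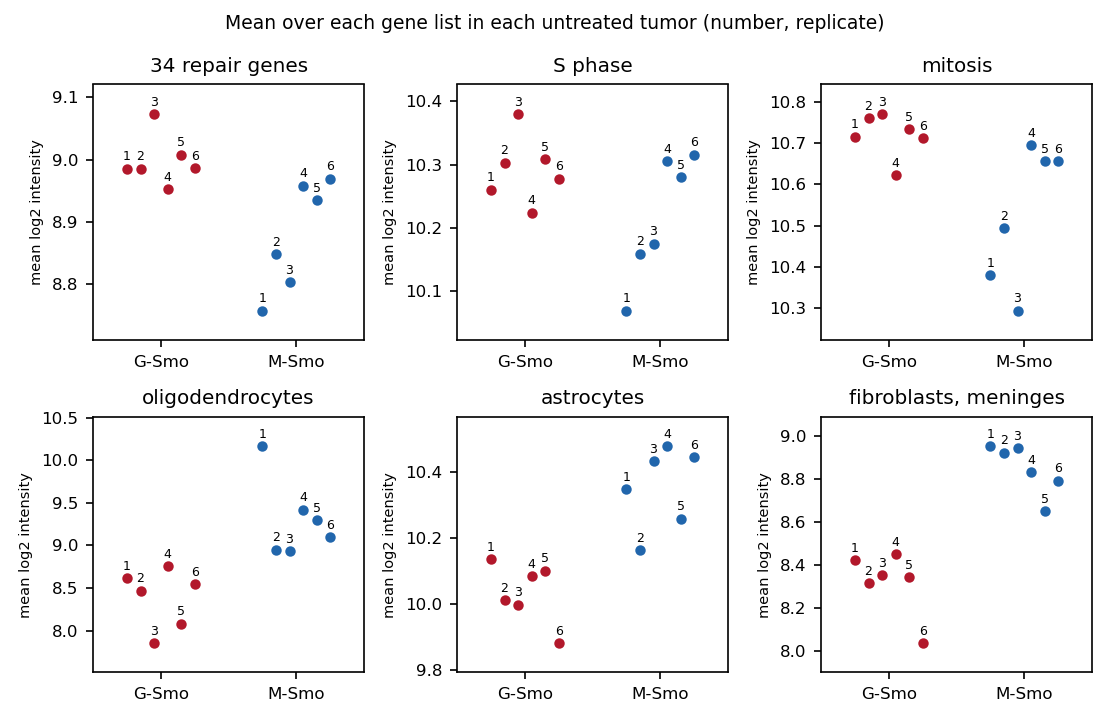
Mean log2 intensity over each of 6 gene lists in each untreated tumor, with the replicate number at each point. The 34 repair genes, S phase and mitosis are lower in *M-Smo* replicates 1, 2 and 3 than in replicates 4, 5 and 6, whereas the 3 lists of other cell types separate the genotypes with *G-Smo* lower.

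Sex was not balanced between the groups, since *Xist*, which silences an X chromosome in females, was at its high level in 5 of 6 *G-Smo* and 2 of 6 *M-Smo* tumors. When a score of sex, the mean of Y-linked genes minus *Xist*, entered the model, none of the 34 genes passed (420 of all probe sets did), and 31 had a difference above 0. *Fanci* differed by 0.33 (adjusted p = 0.0905) and *Rad51b* by 0.21 (adjusted p = 0.185) in that fit, against 0.34 and 0.30 without it.

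The repair pathways hold many genes beyond this set, and 75 of 85 others, listed by function, were measured. Of these 1 was higher in *G-Smo* tumors, none was lower and 74 did not pass (23 above 0 and none below at an unadjusted p under 0.05). The difference was above 0 for 61 of the 75, with a median of 0.08, and the genotypes did not overlap, with *G-Smo* on top, for 9. Over all probe sets 1.27% passed as higher and 10.2% lay above 0 at an unadjusted p under 0.05. The difference was above 0 for 51% of all, and 1.89% had *G-Smo* on top without overlap. The gene that passed was *Pms1*, a mismatch repair gene, with 8.54 to 8.68 in *G-Smo* and 8.14 to 8.46 in *M-Smo* tumors and a difference of 0.26 (adjusted p = 0.0374), a call kept without only 1 of the 12 tumors, *M-Smo* replicate 4, and lost with the score of sex (adjusted p = 0.0503) or the mean of the division genes (difference 0.18, adjusted p = 0.196) in the model. All 11 other Fanconi genes had a difference above 0 with a median of 0.16, and none passed with limma (5 at an unadjusted p under 0.05, 1 with the methods' test). *Fancf*, a subunit of the core complex, differed by 0.23 (adjusted p = 0.0573) and *Fan1*, a nuclease, by 0.20 (adjusted p = 0.0936). In homologous recombination 11 of 13 others lay above 0 with the same median, and none passed (5 at an unadjusted p under 0.05, none with the methods' test). *Eme1*, part of a nuclease that resolves joint molecules, differed by 0.30 (adjusted p = 0.0936) and *Rad51ap1* by 0.21 (adjusted p = 0.0997).

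Among 15 other damage signaling genes 12 lay above 0 and none passed (5 at an unadjusted p under 0.05, 3 with the methods' test), with *Uimc1*, which brings BRCA1 to ubiquitinated chromatin, at 0.22 (adjusted p = 0.0628) and *Rif1*, an effector of the protein of *Trp53bp1*, at 0.18 (adjusted p = 0.0877). In base excision repair 9 of 12 lay above 0 and none passed (3 at an unadjusted p under 0.05, none with the methods' test). The glycosylase *Neil3* stood just outside the threshold at 0.30 (adjusted p = 0.0502), and *Nthl1* at 0.29 (adjusted p = 0.0695). End joining beyond the core had 5 of 6 above 0, and none passed (1 at an unadjusted p under 0.05, none with the methods' test), that 1 being *Polq*, the polymerase of an alternative route, at 0.21 (adjusted p = 0.082). Nucleotide excision repair, which removes bulky lesions, had 6 of 9 above 0 with a median of 0.05, and *Ercc2* and *Ercc6* differed by 0.16 and 0.17. Translesion synthesis, the copying of damaged templates, had 4 of 6 above 0 with a median of 0.09, and *Rev1* and *Polk* differed by 0.12 and 0.25. None of these 15 genes passed with limma (3 at an unadjusted p under 0.05, none with the methods' test).

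The targets of p53, which ATM and CHEK2 activate after damage, were read in the same untreated tumors. Of 14 measured targets 1 was higher in *G-Smo* tumors, none was lower and 12 had a difference above 0, with a median of 0.07. At an unadjusted p under 0.05, 5 lay above 0 and none below. Over all probe sets 1.27% passed as higher, 51% had a difference above 0 and 10.2% lay above 0 at an unadjusted p under 0.05. The 2 targets with a difference below 0 were *Cdkn1a* (-0.16) and *Plk2* (-0.12), and neither passed. *Btg2*, an inhibitor of proliferation, differed by 0.50 (interval 0.30 to 0.70, adjusted p = 0.0182) and passed without each of the 12 tumors in turn (adjusted p = 0.0114 to 0.0482), but not with the score of sex (0.0606) or the mean of the division genes (0.0904) in the model. *Eda2r*, a receptor of the TNF receptor family, differed by 0.33 (adjusted p = 0.0577).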

How the data were processed

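RNA of 12 untreated tumors, 6 *G-Smo* and 6 *M-Smo*, was measured with 1 Affymetrix Mouse Gene ST array each, and 12 irradiated tumors had values for 1019 unannotated probe sets, which were not used. Values were deposited by the authors on a log2 scale, 1 per probe set and array, after robust multi-array averaging (RMA), a method that subtracts background, gives all arrays the same distribution and combines the probes of a set. The submitters' processing notes and the methods name Partek, and versions are not given in the sources used here. RMA draws arrays together and can compress small differences. The precision is limited by the number of arrays.

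The values were used without further normalization or filter. Genes were named through the platform annotation, which gave 1 symbol to 23521 probe sets, and the probe set with the highest mean stood for a gene. The genotypes were compared with limma 3.58.1 in R 4.3.3 (lmFit and eBayes, two-sided, Benjamini-Hochberg over 41345 probe sets, threshold 0.05). Single values were compared by an exact permutation test over 924 assignments. The test named in the methods was also run, per probe set and without moderation. Steps were tested on simulated data. Every gene of the set is accounted for. Values by tumor are given for those that passed and for the smallest unadjusted p in each class, and genes of other lists were named from those that passed or had the 2 smallest p of their list. The 2 p53 targets with a difference below 0 were named as well. The genes and lists were chosen with earlier results of these data known. Promoter motifs were chosen after the differences had been seen. Figures were drawn in Python 3.11.15 with matplotlib 3.10.9.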

Additional observations from a re-analysis of the deposited data

Results flagged for a closer look

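In 4 of 68 groups of 6 tumors (34 genes in each genotype) 1 tumor stood apart from the other 5, its gap to the nearest one, as a share of the whole range, exceeding Dixon's 95% critical value, and chance alone gives such a gap in about 1 in 20 groups. *Chek1* was 9.00 in *G-Smo* replicate 4 against 9.14 to 9.17 in the other *G-Smo* tumors, a gap of 0.796 of the range. *Brca1* was 10.13 in *G-Smo* replicate 3 against 9.72 to 9.85 in the others (0.689) and 9.40 in *M-Smo* replicate 1 against 9.59 to 9.67 (0.702). *Brca2* was 9.99 in *G-Smo* replicate 3 against 9.66 to 9.73 (0.791). Leaving out 1 tumor at a time, the difference of *Brca1* ran from 0.17 to 0.26, that of *Brca2* from 0.03 to 0.10 and that of *Chek1* from 0.05 to 0.13, none of which passed (lowest adjusted p from limma 0.133, 0.505 and 0.343).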

How the results depend on the processing

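Of the 34 repair genes 2 passed. The count was 1 after median centring and after quantile normalization, 6 when probe sets under the 40th percentile were left out, 4 with only probe sets of 1 gene symbol and 5 when limma's variance was modelled with a trend and robustly. It was 0 with the sex-linked score and with the mean of the division genes, and 0 to 1 with 1 tumor left out. The count over all probe sets, 1057, was 1881 with the percentile filter, 420 and 268 with those 2 covariates, and 367 to 942 with 1 tumor left out. For *G-Smo* tumors it was 609 without replicate 2, 503 without 3, 367 without 5 and 452 without 6, and for *M-Smo* tumors 676 without replicate 5 and 596 without 6. The count of other repair genes, 1, was 8 with the percentile filter, 5 with 1 symbol, with trend and robust settings and with the methods' test, 2 with identical probe sets counted once, 0 with either covariate and 0 to 2 with 1 tumor left out. The median difference of the 34 genes, 0.11, was 0.043 with the division genes in the model and 0.085 to 0.136 with 1 tumor left out. The cause was not tested, except that fewer probe sets were tested under the filters. Same-numbered tumors of the genotypes did not deviate together (correlations -0.138 to 0.114, 1 of 6 over 0.1), and with the replicate number as a block 0 of the 34, 0 of the other repair genes and 113 of all probe sets passed. Only 1 of 6 *G-Smo* tumors correlated best with its own number.

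No gene that passed changed sign. With the division genes in the model the sign turned for *Chek1* (-0.054), *Rnf168* (-0.078), *H2afx* (-0.183), *Mre11a* (-0.018), *Rad50* (-0.0047), *Palb2* (-0.132), *Rad51c* (-0.138), *Xrcc6* (-0.147), *Lig4* (-0.092), *Nhej1* (-0.040) and *Xrcc1* (-0.059). With array weights it turned for *Rnf168* (-0.0073), *H2afx* (-0.030), *Palb2* (-0.017), *Rad51c* (-0.019) and *Xrcc6* (-0.040), and after quantile normalization for *H2afx* (-0.0096), *Palb2* (-0.011), *Rad51c* (-0.0034), *Xrcc6* (-0.028) and *Nhej1* (-0.012). Median centring turned *H2afx* (-0.0027) and *Xrcc6* (-0.0088), the sex-linked score *Xrcc6* (-0.039), and the mean of both probe sets *Atr* (-0.062). With 1 tumor left out the differences that crossed 0 were those of *Rnf168* (-0.014 to 0.046), *H2afx* (-0.026 to 0.049), *Palb2* (-0.023 to 0.071), *Rad51c* (-0.011 to 0.084), *Xrcc3* (-0.060 to 0.046), *Xrcc4* (-0.0095 to 0.094), *Xrcc6* (-0.038 to 0.050) and *Nhej1* (-0.017 to 0.071). Adjusted p-values over all these settings ran from 0.0122 to 0.126 for *Fanci* and from 0.0238 to 0.185 for *Rad51b*.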
